A study of Mus musculus with 10 samples.

Results

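The cells described here are the lymphatic endothelial cells (LECs) of mouse ear skin whose transcripts leaned furthest toward the lymphatic capillary end of the LEC range. They were profiled on 8 Smart-seq plates, in which each well holds 1 sorted cell. Wells with at least 50000 gene counts and 1000 detected genes were kept, which left 2664 of 3048 wells. Each kept well received a score. The score is the mean log2(CPM + 1) of 5 capillary genes, Reln, Piezo2, Slco2b1, Pcsk6 and Dlg1, minus that of 7 genes of collecting vessels, Bgn, Ccdc3, Mmrn2, Plvap, Procr, Tgm2 and Tsc22d1. CPM is a gene's count scaled to a library of 1000000 gene counts. Wells above the 80th percentile of the score in the pooled Cre-negative wells, a score of 2.019, were taken as members and are called capillary wells. There were 943 of them, and 1721 other wells.

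All mice received 4-hydroxytamoxifen (4-OHT) from P1 to P5, Cre-negative mice included, and by the methods of the study the skin was taken on P28. The 4 genotypes were Tie1 fl/fl and Tie1 fl/fl, Tie2 fl/fl mice without Cre, and the same floxed alleles together with Prox1CreERT2, a tamoxifen-inducible Cre under the promoter of the LEC transcription factor Prox1. They are written Tie1 fl/fl, Tie1 Tie2 fl/fl, Tie1 iΔLEC and Tie1 Tie2 iΔLEC, with 2 plates each. Plate 1 of Tie1 fl/fl and plate 1 of Tie1 iΔLEC came from female mice and the other plates from males. Live CD31+ PDPN+ CD45- CD11b- Ter119- cells were sorted. The labels do not say how many mice a plate holds, so p-values measure the spread between plates, which may in part be technical. The presence of Cre and the loss of the receptors cannot be told apart in these groups.

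Lymphatic capillaries are the blind-ended vessels that take up interstitial fluid, lipids and immune cells, and their LECs are rich in the hyaluronan receptor LYVE1. The lymph then passes into collectors, whose contractile muscle layer and valves move it onward. Tie1 and Tie2 (encoded by Tek) are endothelial receptor tyrosine kinases. Angiopoietin-2 (Angpt2) is a ligand of Tie2, and Tie1 modulates Tie2 signalling.

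The membership was set by measured values, so the levels of the 12 scored genes, the share of members and the levels of genes in capillary against other wells are given as a description, without a test. Members had scores from 2.024 to 8.396 with a median of 3.517. The others ranged from -8.688 to 2.019 with a median of -0.53. The scores formed a continuum at the threshold, with 93 members no more than 0.25 above it and 72 other wells no more than 0.25 below it. The 5 nearest members scored 2.024 to 2.033 and the 5 nearest other wells 1.994 to 2.019.

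The median gene count per capillary well ranged from 193767 on plate 1 of Tie1 Tie2 iΔLEC to 358048 on plate 1 of Tie1 fl/fl, and per other well from 191339 to 311284. The summed counts of the members of a plate ranged from 15289413 to 74551421. Median detected genes were 6096 to 7610 in the members of 4 plates and 3822 to 5264 in those of the other 4. These sets are the plates whose tables were deposited with gene symbols and those deposited with Ensembl identifiers, and each genotype has 1 plate of either kind. Mitochondrial transcripts took a median of 0.777% to 0.928% of the counts of capillary wells on 6 plates and 1.03% and 1.47% on the Tie1 Tie2 iΔLEC plates. The other wells of these 2 plates were likewise the highest, at 1.03% and 1.45%. The part of this difference in the results below was not tested.

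The share of capillary wells was higher on the Tie1 Tie2 iΔLEC plates than on any other plate. Among Tie1 fl/fl wells, 37 of 271 (13.7%, 95% exact binomial interval 9.80% to 18.3%) and 86 of 340 (25.3%, 20.8% to 30.3%) were members. On the Tie1 Tie2 fl/fl plates they were 70 of 352 (19.9%, 15.8% to 24.4%) and 66 of 333 (19.8%, 15.7% to 24.5%). The rule itself sets the pooled Cre-negative wells at 20%, so only the spread between these 4 plates is a measurement, and it was wide for Tie1 fl/fl.

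In Tie1 iΔLEC the share was 74 of 323 wells (22.9%, 18.4% to 27.9%) on one plate and 151 of 344 (43.9%, 38.6% to 49.3%) on the other. In Tie1 Tie2 iΔLEC it was 216 of 348 (62.1%, 56.7% to 67.2%) and 243 of 353 (68.8%, 63.7% to 73.6%). The mean share went from 19.5% ± 8.23 (SD, n = 2) to 33.4% ± 14.8 with Tie1 deletion, and the plates of these genotypes overlapped. It went from 19.9% ± 0.0471 to 65.5% ± 4.79 with Tie1/-2 deletion, without overlap. The differences were 13.9 and 45.6 percentage points. The share follows from the 12 scored genes, so it is given as a description. The intervals cover counting error only.

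**Figure D1:**
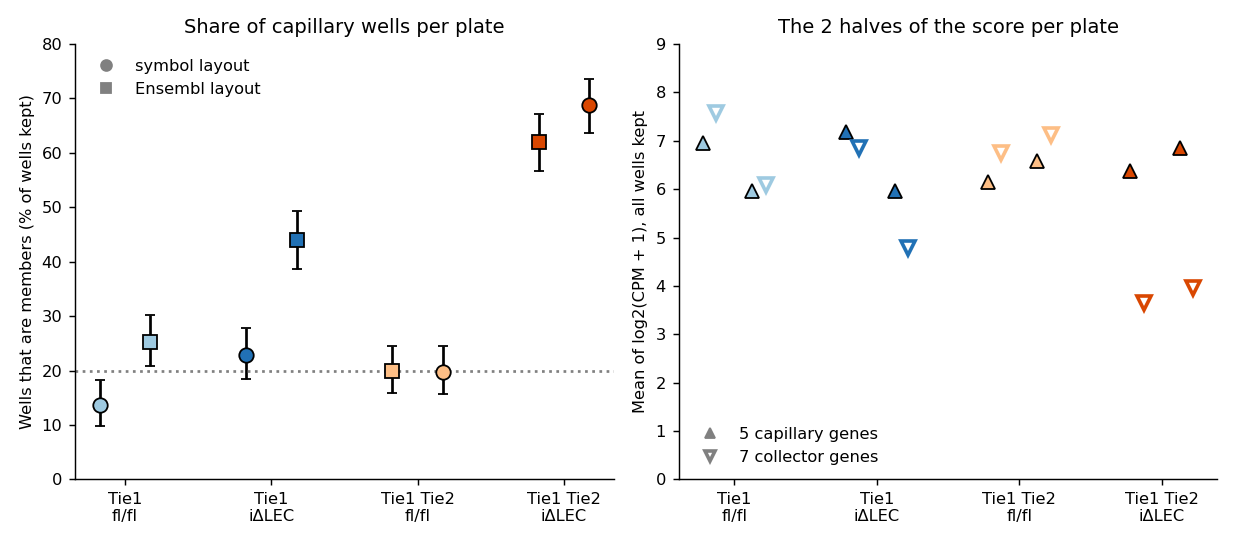
Left, percent of kept wells that are capillary wells on each plate, with 95% exact binomial intervals, circles for plates deposited with symbols and squares for those with Ensembl identifiers; the dotted line marks the 20% that the rule sets in pooled Cre-negative wells. Right, the mean log2(CPM + 1) of the 5 capillary genes (filled) and of the 7 collecting-vessel genes (open) over all kept wells of the plate: on the Tie1 Tie2 iΔLEC plates, with shares of 62.1% and 68.8%, the open symbols lie at 3.66 and 3.95 and the filled ones at 6.37 and 6.86.

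The difference in share went with the collecting-vessel genes of the score far more than with its capillary genes. Over all kept wells, the mean log2(CPM + 1) of the 7 collecting-vessel genes was 6.93 ± 0.26 (SD, n = 2) in Tie1 Tie2 fl/fl and 3.80 ± 0.21 in Tie1 Tie2 iΔLEC, a difference of -3.13. The 5 capillary genes stood at 6.36 ± 0.31 and 6.61 ± 0.34, a difference of 0.25. In the Tie1 strain the collecting-vessel genes differed by -1.0 and the capillary genes by 0.12. When wells were ranked by the 5 capillary genes alone and the threshold set again, the share differed by 1.60 points with Tie1/-2 deletion and by 5.18 points with Tie1 deletion. The study named these 12 genes for clusters of LECs from this experiment, so they are not independent evidence of a direction.

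Within plates of one table format the differences in share were 9.26 points (symbols) and 18.6 points (Ensembl) for Tie1 deletion and 49.0 and 42.2 points for Tie1/-2 deletion. The capillary wells of the genotypes differed in which genes took them past the threshold. Of the 136 members in Tie1 Tie2 fl/fl, 72.8% were also past the 80th percentile by the capillary genes alone, against 33.3% of the 459 members in Tie1 Tie2 iΔLEC. In Tie1 fl/fl and Tie1 iΔLEC these percentages were 55.3% and 54.7%. The mean log2(CPM + 1) of the 5 capillary genes in members was 7.40 and 7.52 on the Tie1 Tie2 iΔLEC plates, lower than on the other 6 plates, where it was 7.84 to 8.83.

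**Figure D2:**
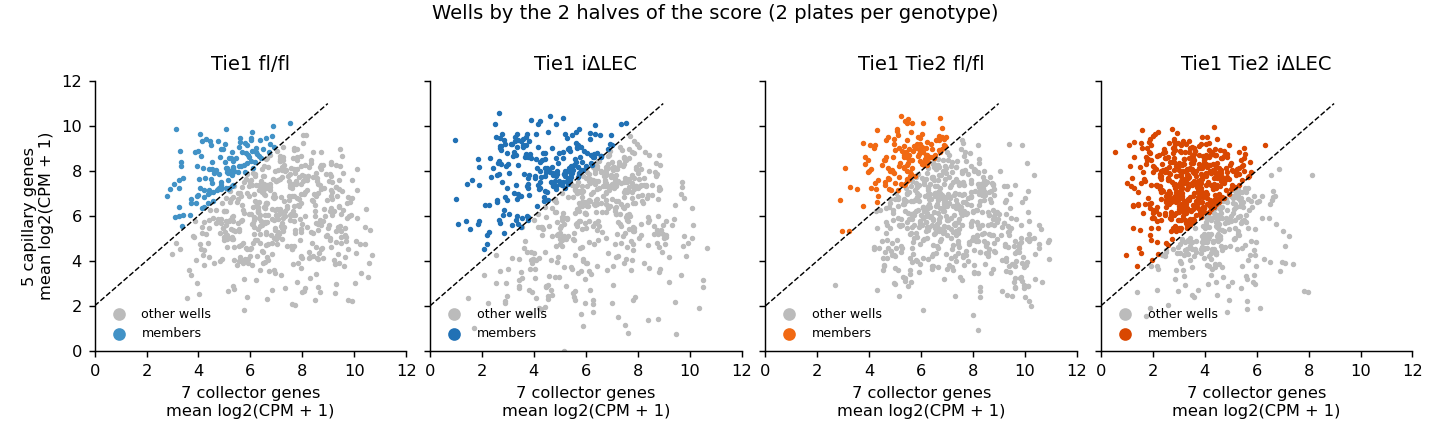
Each point is 1 kept well, placed by the mean log2(CPM + 1) of the 7 collecting-vessel genes (x) and of the 5 capillary genes (y), with both plates of a genotype in 1 panel; the dashed line is the score of 2.019 above which wells are members (coloured). In Tie1 Tie2 iΔLEC the cloud sits to the left of the others, and 459 wells lie above the line.

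From here on, the counts of all capillary wells of a plate were summed, as were those of its other wells, and CPM of these sums are on the scale of TMM normalization. Of the 5 scored capillary genes, Reln encodes the secreted glycoprotein reelin. The capillary wells of Tie1 fl/fl held it at 1373 and 1437 CPM and those of Tie1 Tie2 fl/fl at 1627 and 1966 CPM. It was at 1767 and 1689 in Tie1 iΔLEC and at 1035 and 730 in Tie1 Tie2 iΔLEC, the lowest of the 8 plates. In the other wells of the 8 plates Reln ranged from 413 to 1004 CPM. Piezo2, a mechanosensitive channel, did not share that order in members, with 313 to 451 CPM in Cre-negative plates and 553 and 356 in Tie1 Tie2 iΔLEC.

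Lyve1 is a capillary marker that the score left out, but the study named it for its capillary cluster from this experiment. It was at 2779 and 3586 CPM in the capillary wells of Tie1 fl/fl, 3182 and 3286 in Tie1 Tie2 fl/fl, 2981 and 4085 in Tie1 iΔLEC and 4411 and 3976 in Tie1 Tie2 iΔLEC. In the other wells it was at 1391 and 1926, 1226 and 1200, 1771 and 1678, and 3219 and 2621 CPM. The capillary wells were higher on every plate, by a mean log2 ratio of 0.98 ± 0.37 (SD, n = 8), and the Tie1 Tie2 iΔLEC plates had the smallest ratios and the highest Lyve1 in their other wells. At least 1 Lyve1 count was found in 100% of capillary wells and in 99.9% of other wells, so they differed in level and not in detection. Of 8 capillary genes outside the score, Lyve1 was the one that was higher on all 8 plates and 0 were lower on all 8, with a median log2 ratio over the list of 0.25. Within capillary wells the log2 fold change of Lyve1 with Tie1/-2 deletion was 0.37 (SE 0.21, edgeR adjusted p = 0.760).

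Divided by exon length, the level of Lyve1 in the capillary wells of the 4 Cre-negative plates was 1099 CPM per kb, above the 5 scored capillary genes. Of these, Pcsk6, a proprotein convertase gene, was at 168, the transporter gene Slco2b1 at 164, Reln at 67.4, the scaffold gene Dlg1 at 26.8 and Piezo2 at 22.3 CPM per kb. On the same scale the multimerin gene Mmrn1 was at 527, Tie1 at 474, the VEGFR3 gene Flt4 at 234, Angpt2 at 93.3, Prox1 at 91.7 and Tek at 43.7 CPM per kb. Prox1, the master regulator of LEC identity, differed little between capillary and other wells, with a mean log2 ratio of -0.10 ± 0.21 (SD, n = 8). Of 13 genes of lymphatic identity, 6 were higher in capillary wells on all 8 plates (Lyve1, Flt4, Mmrn1, Nr2f2, Thy1 and Maf) and 1, Fxyd6, was lower. Among all 10094 genes with at least 10 CPM outside the score, 2.11% were higher on 8 of 8 plates and 2.81% lower.

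The 4 genes of a Ptx3+ Mrc1+ capillary population in the lists were each higher in capillary wells on all 8 plates. Ptx3, a soluble pattern-recognition protein, had a mean log2 ratio of 0.98 ± 0.47, the mannose receptor gene Mrc1 1.32 ± 0.55, the imprinted gene Mest 1.33 ± 0.31 and Itih5, an inter-alpha-trypsin inhibitor heavy chain, 1.40 ± 0.77 (SD, n = 8). Outside these lists of LEC types, the water channel Aqp1 (1.33 ± 0.60), the chemokine Cxcl12 (1.23 ± 0.69) and the scavenging chemokine receptor Ackr2 (0.90 ± 0.47) were also higher on every plate. Of 6 blood endothelial genes, 4 had at least 10 CPM in capillary or other wells, Aqp1 among them. Of these 4, 1 was higher and 1 lower on all 8 plates, with a median log2 ratio of -0.05. Aqp1 was at 447 to 864 CPM in capillary wells and at 145 to 247 in the other wells of 6 plates. On the Tie1 Tie2 iΔLEC plates the other wells stood at 610 and 504 CPM and their capillary wells at 840 and 699.

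Most valve genes were low in capillary wells. The study named Gdf10, Gjd3, Cldn11, Slc41a1 and Neo1 for its valve cluster from this experiment, so these genes are not independent evidence. Of 10 valve genes, 8 were lower than in other wells on all 8 plates, with a median log2 ratio over the list of -1.23 where the median of all genes was -0.03. Cldn11, a tight-junction claudin of lymphatic valves, was at 26.5 to 161 CPM in capillary wells and at 123 to 621 CPM in other wells. Gdf10, a BMP family ligand, was at 25.0 to 203 CPM in capillary wells and 213 to 603 CPM in other wells. The transcription factor genes Foxc2 and Gata2, needed for valve formation, had mean log2 ratios of -0.88 ± 0.30 and -1.15 ± 0.45. The remaining valve genes, Itga9 and Nfatc1, had 0.11 ± 0.55 and -0.26 ± 0.23.

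Of 8 collecting-vessel genes outside the score, 6 had at least 10 CPM in capillary or other wells. Of these 6, 3 were lower in capillary wells on all 8 plates and 1 was higher, with a median log2 ratio of -0.46. The connexin gene Gja4, the adhesion gene Esam and the caveolin gene Cav1 were the lower ones (mean log2 ratios -0.55, -1.33 and -0.36). The endothelial nitric oxide synthase gene Nos3 (-2.68 ± 1.40), the lipoprotein lipase gene Lpl (-2.07 ± 1.29) and the laminin chain gene Lama5 (-2.17 ± 1.15) were lower on every plate. Other basement membrane genes went the other way, with Col4a1, Lama4 and Lamc1 higher on every plate by 0.33, 0.23 and 0.44. Tek was lower on all 8 plates, with a mean log2 ratio of -0.67 ± 0.31, and Tie1 on 7 of 8, with -0.45 ± 0.37. Neither these counts nor their sizes were tested.

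**Figure D3:**
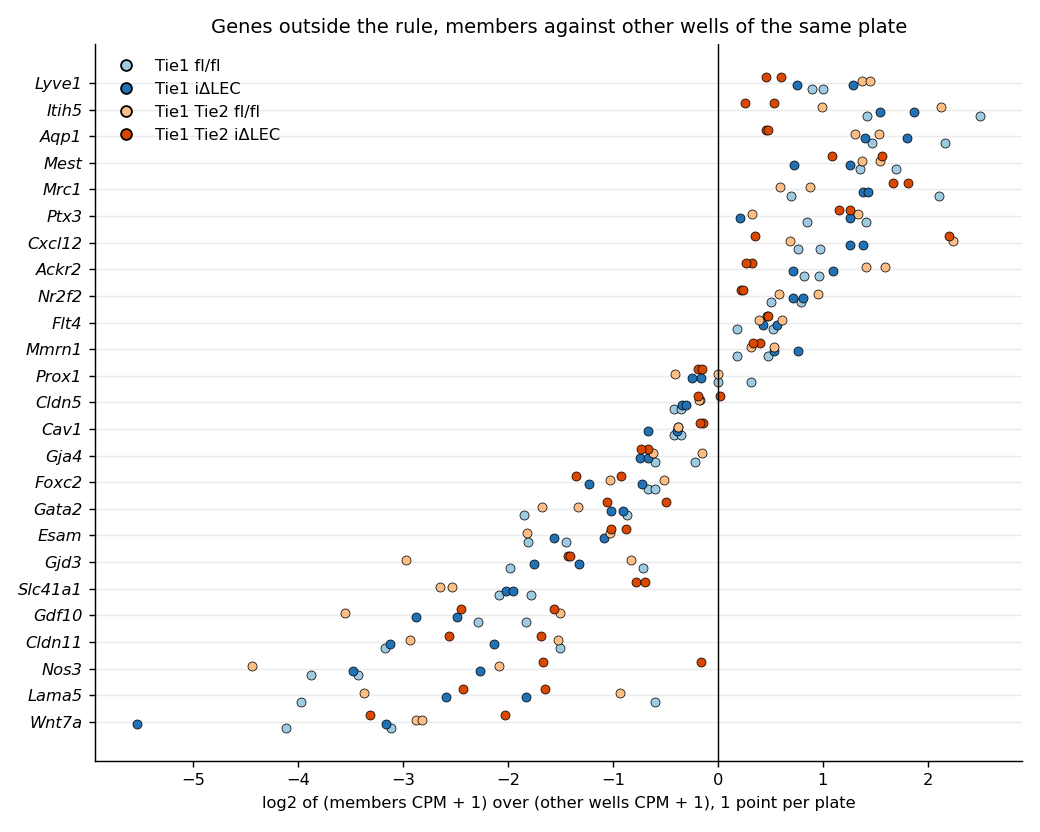
log2 of capillary wells over other wells of the same plate, 1 point per plate, for genes outside the score, coloured by genotype, from summed counts as CPM + 1. Lyve1, Itih5 and Aqp1 lie right of 0 on all 8 plates with the Tie1 Tie2 iΔLEC plates nearest to 0, Prox1 lies on both sides of 0, and the valve genes Gdf10 and Cldn11 lie left of -1.

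Few genes outside the score were past 2-fold on each of the 8 plates. Only 2 of 10094 (0.0198%) were higher in capillary wells, and 11 (0.109%) were lower. Lrrn2, a leucine-rich repeat membrane protein gene, was at 87.2, 18.3, 79.7 and 25.5 CPM in the capillary wells of the Cre-negative plates and at 14.6, 6.45, 14.7 and 3.24 CPM in their other wells. It was also higher on each Cre-positive plate, but its level in capillary wells was 14.0 and 2.53 CPM in Tie1 Tie2 iΔLEC. The other, Gm15635, is a gene model at 43.5 to 133 CPM in capillary wells and 11.8 to 58.7 CPM in other wells.

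The 11 genes that were lower include the Wnt ligand gene Wnt7a, at 0 to 1.09 CPM in capillary wells and 3.09 to 52.3 CPM in other wells, and the complement receptor gene C5ar2, at 0.176 to 7.33 against 15.6 to 38.7 CPM. Mfap2, a microfibril component, was at 4.19 to 18.4 against 30.0 to 190 CPM. The fatty acid binding protein gene Fabp4 was at 0 to 2.93 against 1.38 to 31.9 CPM. The others were Gm26776, Sbspon, Slc27a3, Cldn11, Gdf10, Smtnl2 and Clca3a1, with mean log2 ratios from -4.05 to -1.60.

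Fewer genes were past 2-fold lower in capillary than in other wells in Tie1 Tie2 iΔLEC. Of all 10094 genes, 3.81% were lower on both Tie1 fl/fl plates, 3.4% on both Tie1 Tie2 fl/fl plates, 2.34% on both Tie1 iΔLEC plates and 0.812% on both Tie1 Tie2 iΔLEC plates. In the same order, 136, 134, 122 and 103 genes were higher. Genes past 2-fold on both Tie1 fl/fl plates were picked and then read on the plates of the other genotypes. Of the 385 that were lower in capillary wells there, 21% were again past 2-fold on both Tie1 Tie2 fl/fl plates and 21.3% on both Tie1 iΔLEC plates, but 5.97% on both Tie1 Tie2 iΔLEC plates. Of the 343 picked on Tie1 Tie2 fl/fl, 23.6% were past 2-fold again in Tie1 fl/fl, 23.3% in Tie1 iΔLEC and 6.71% in Tie1 Tie2 iΔLEC. For genes higher in capillary wells the percentages were 11.0% and 8.21% in Tie1 Tie2 iΔLEC and 11.8% to 16.9% in the other genotypes. These percentages are a description of 2 plates a genotype and were not tested. The sums of capillary wells rested on 37 to 86 wells on the Cre-negative plates and on 216 and 243 on the Tie1 Tie2 iΔLEC plates. The part of this difference in the percentages was not tested. The percentage over all genes was lowest in Tie1 Tie2 iΔLEC too, so the low values there are not particular to the genes picked, and the members of Tie1 Tie2 iΔLEC were chosen mostly by low collecting-vessel genes.

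**Figure D4:**
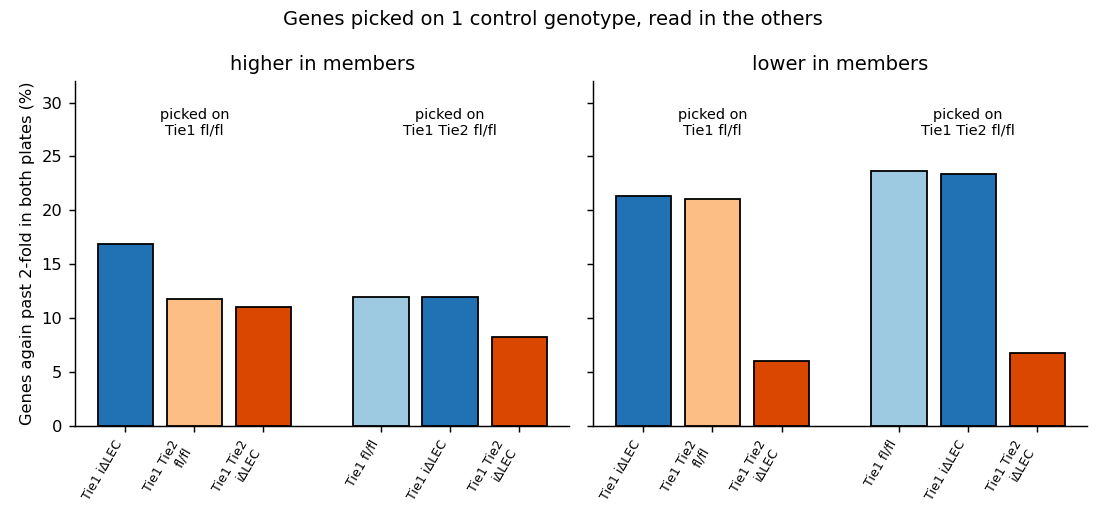
Percent of the genes past 2-fold between capillary and other wells on both plates of one Cre-negative genotype that were past 2-fold in the same direction on both plates of another genotype, for genes higher (left) and lower (right) in capillary wells. Among lower genes the Tie1 Tie2 iΔLEC bars stand at 5.97% and 6.71% and the others at 21% to 23.6%.

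The counts of capillary wells were summed per plate and compared between genotypes, leaving out the 12 scored genes. The wells compared differed in what made them members. In Tie1 Tie2 fl/fl, 72.8% of members were also past the threshold set by the capillary genes alone, against 33.3% in Tie1 Tie2 iΔLEC. The part of this difference in the results below was not tested. When wells were ranked by the capillary genes alone, 21 of the 26 genes called below with Tie1/-2 deletion were called again. Genes were tested with the quasi-likelihood F-test of edgeR, and p-values were adjusted by Benjamini-Hochberg over all genes tested. A gene is said to have changed at an adjusted p under 0.05. The 2 contrasts share the estimate of the spread but no plates.

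The deleted genes come first. Tie1 (chr4:118471191-118490061, GRCm38) was at 2070 and 2361 CPM in the capillary wells of Tie1 fl/fl, 2797 and 2092 in Tie1 Tie2 fl/fl, 359 and 519 in Tie1 iΔLEC and 611 and 413 in Tie1 Tie2 iΔLEC. All 4 Cre-positive plates lay below all 4 Cre-negative plates, and the level was 19.8% and 20.9% of that in the control genotype. Its log2 fold change was -2.26 (SE 0.29, edgeR adjusted p = 0.029) with Tie1/-2 deletion and -2.33 (SE 0.29, edgeR adjusted p = 0.169) with Tie1 deletion, so the single-deletion value did not pass the threshold. It passed in 4 of 22 alternatives (DESeq2, no filter on low counts, a term for table format, limma). Tek (chr4:94739289-94874976) was at 133 and 282 CPM in Tie1 fl/fl, 196 and 212 in Tie1 Tie2 fl/fl, 150 and 193 in Tie1 iΔLEC, and 31.0 and 34.3 in Tie1 Tie2 iΔLEC. Only the plates with floxed Tie2 and Cre were low, with a log2 fold change of -2.64 (SE 0.40, edgeR adjusted p = 0.0649) that did not pass the threshold. The counts cover all exons, deleted and retained, so the remaining level is not a measure of intact transcript.

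With Tie1/-2 deletion 26 of 16223 genes (0.16%) changed in capillary wells, 7 upward and 19 downward, and 1250 had an unadjusted p under 0.05. DESeq2 on the same sums called 522 (3.22%). Of all genes tested, 21.2% were higher and 15.5% lower without overlap between the 2 plates of either genotype. With Tie1 deletion edgeR called 0 of 16223 genes (0%), with 939 at an unadjusted p under 0.05, and DESeq2 called 225 (1.39%). In that contrast 18.5% of genes were higher and 13.5% lower without overlap.

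Angpt2 had the smallest adjusted p of the genes that rose (chr8:18690263-18741562). It was at 428 and 381 CPM in the capillary wells of Tie1 fl/fl, 237 and 331 in Tie1 Tie2 fl/fl, 1202 and 1095 in Tie1 iΔLEC and 3181 and 2637 in Tie1 Tie2 iΔLEC. The genotypes did not overlap. The log2 fold change with Tie1/-2 deletion was 3.35 (SE 0.25, edgeR adjusted p = 0.00192). With Tie1 deletion it was 1.51 (SE 0.23, edgeR adjusted p = 0.327). The 2 effects differed by 1.85 (SE 0.32), a difference that did not pass the threshold in the fit across all genes (edgeR adjusted p = 0.415). The other wells held Angpt2 at like levels, 3448 and 2562 CPM in Tie1 Tie2 iΔLEC against 271 and 548 in Tie1 Tie2 fl/fl.

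Fn1, which encodes the matrix protein fibronectin, rose from 949 and 778 CPM to 4226 and 3612 CPM, with a log2 fold change of 2.18 (SE 0.26, edgeR adjusted p = 0.0215). The sodium channel gene Scn3a rose from 134 and 138 to 761 and 945 CPM and the tetraspanin gene Tspan6 from 40.2 and 28.8 to 222 and 353 CPM (edgeR adjusted p = 0.04 and 0.029). Fn1 was higher in Tie1 iΔLEC too, at 1372 and 1529 against 519 and 819 CPM in Tie1 fl/fl, and Scn3a at 427 and 402 against 262 and 121 CPM. Neither passed the threshold there (edgeR adjusted p = 0.771 and 0.842).

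A pair of genes was close to absent from Cre-negative capillary wells. Esm1, which encodes the endothelial proteoglycan endocan, had 1 and 5 counts in the capillary wells of Tie1 Tie2 fl/fl and 5126 and 6059 in Tie1 Tie2 iΔLEC, or 130 and 81.6 CPM (edgeR adjusted p = 0.0332). It was found in 1.43% and 4.55% of the capillary wells of the controls and in 21.8% and 42.4% of those with Tie1/-2 deletion. In the other wells of the Tie1 Tie2 iΔLEC plates it was at 25.7 and 2.77 CPM. The amino acid transporter gene Slc38a1 had 3 and 5 counts in Tie1 Tie2 fl/fl and 51.7 and 62.5 CPM in Tie1 Tie2 iΔLEC (edgeR adjusted p = 0.0194), and reached 62.6 and 69.4 CPM in the other wells of these plates. In Tie1 iΔLEC it was at 15.2 and 13.8 CPM in capillary wells, where Tie1 fl/fl had 3 counts in all. The ratio was 167 with a 95% counting interval of 57 to 812. Counting intervals of ratios, here and below, take reads as independent and leave out the spread between wells and plates.

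Adm, which encodes the lymphangiogenic peptide adrenomedullin, also rose. In the controls it was lower in capillary than in other wells. In capillary wells it was at 57.9 and 36 CPM in Tie1 Tie2 fl/fl and 287 and 379 in Tie1 Tie2 iΔLEC. The other wells stood at 214 and 183 and at 202 and 228 CPM. Members were 19.9% and 19.8% of kept wells in Tie1 Tie2 fl/fl and 62.1% and 68.8% in Tie1 Tie2 iΔLEC. The part of this difference in the rise of Adm was not tested. The log2 fold change in capillary wells was 2.83 (SE 0.41, edgeR adjusted p = 0.0473). This call held in 4 of 22 alternative settings, with adjusted p from 5.57e-08 (DESeq2) to 0.405. The log2 fold change lay between 2.52 and 3.29 in all 22. The call was lost when any 1 plate other than plate 2 of Tie1 iΔLEC was left out, which for a Tie1 Tie2 plate leaves an arm of 1 plate.

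Eln, which encodes elastin (chr5:134702593-134747323), was at 765 and 845 CPM in Tie1 fl/fl, 645 and 775 in Tie1 Tie2 fl/fl, 431 and 492 in Tie1 iΔLEC and 67.9 and 54.9 in Tie1 Tie2 iΔLEC. It fell by 3.53 on the log2 scale (SE 0.26, edgeR adjusted p = 0.00192). At least 1 Eln count was present in 98.8% to 100% of the capillary wells of the Cre-negative plates but in 30.1% and 62.6% of those of Tie1 Tie2 iΔLEC. Lrg1, a secreted leucine-rich glycoprotein gene (chr17:56119678-56122001), went from 405 and 505 to 36.2 and 40.1 CPM, a log2 fold change of -3.58 (SE 0.27, edgeR adjusted p = 0.00192).

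The growth factor gene Ptn, pleiotrophin (chr6:36714929-36810220), fell from 165 and 257 to 0.937 and 1.77 CPM, 0.641% of the control level (log2 fold change -7.27, SE 0.65, edgeR adjusted p = 0.00659). It was found in 68.6% and 95.5% of capillary wells in Tie1 Tie2 fl/fl and in 1.39% and 4.12% in Tie1 Tie2 iΔLEC. Comp, a matrix protein gene, fell from 279 and 523 to 2.63 and 9.93 CPM, and Igfbp3, an IGF-binding protein gene, from 612 and 298 to 13.2 and 9.76 CPM (edgeR adjusted p = 0.0195 and 0.0337). In Tie1 iΔLEC, Comp was at 299 and 270 CPM against 222 and 315 in Tie1 fl/fl, so the plates overlapped. Ptn was at 33.7 and 68.8 against 104 and 166 CPM there and did not pass the threshold.

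Among intracellular and membrane proteins, Prkar1b, a regulatory subunit of protein kinase A, was at 87.6 and 21.1 CPM in Tie1 Tie2 fl/fl and had 2 and 4 counts in Tie1 Tie2 iΔLEC. The other wells of the Cre-negative plates held 196 to 323 CPM, against 13.4 to 87.6 in their capillary wells, and the other wells of both Tie1 Tie2 iΔLEC plates had 0 counts. Gucy1a1, a subunit of the nitric oxide receptor guanylate cyclase, fell from 469 and 355 to 50.8 and 27.2 CPM (edgeR adjusted p = 0.0195). Duoxa2, a maturation factor of a dual oxidase, Slc10a4, a transporter-family gene, and Clca3a1, of a chloride channel regulator family, also fell. The Slc10a4 ratio of control over deleted was 1803 with a 95% counting interval of 498 to 14910, from 2 counts in Tie1 Tie2 iΔLEC.

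Tppp3, a tubulin-binding protein gene, is a further capillary gene outside the score that the study named for its capillary cluster from this experiment. It was at 578 and 1095 CPM in the capillary wells of Tie1 fl/fl, 815 and 902 in Tie1 Tie2 fl/fl, 572 and 691 in Tie1 iΔLEC and 114 and 82.8 in Tie1 Tie2 iΔLEC. It fell by 3.12 on the log2 scale with Tie1/-2 deletion (SE 0.35, edgeR adjusted p = 0.0195). In control plates it was higher in capillary wells than in other wells, which held 337 to 612 CPM. In Tie1 Tie2 iΔLEC the other wells had 78.6 and 109 CPM. Most of its list went the other way. The 8 capillary genes outside the score had a median log2 fold change of 1.14 with Tie1/-2 deletion, and 6 were positive. Tppp3 was the only one called. The remaining called genes, all lower and not among the 10 largest falls, were Fndc1, Aldh2, Serping1, Col23a1, Ucp2, Pcp4l1 and Aebp1, with log2 fold changes from -3.38 to -2.39.

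**Figure D5:**
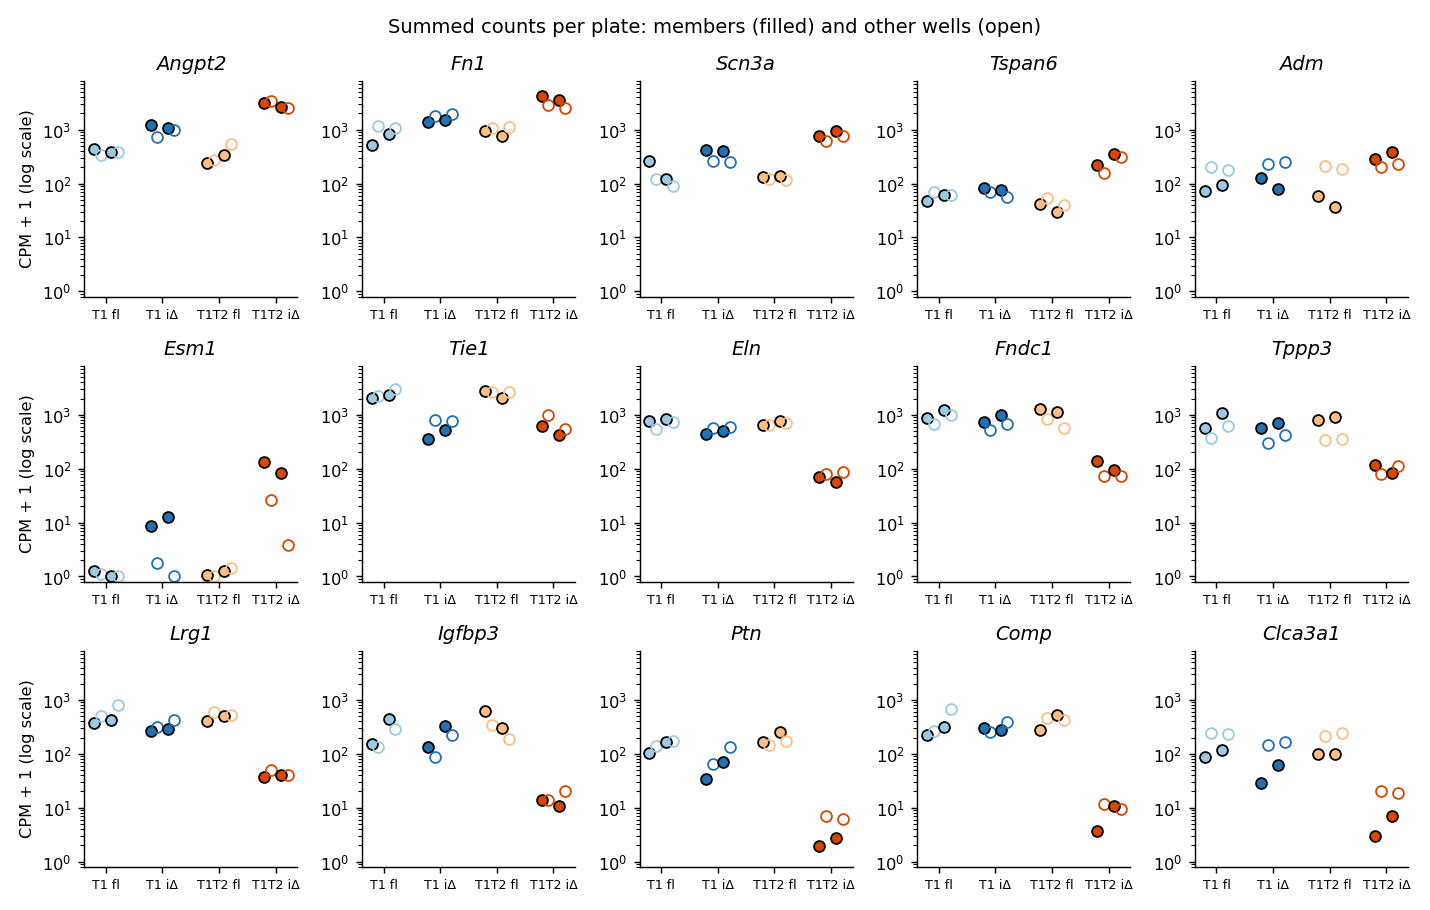
CPM + 1 on a log axis for 15 genes called with Tie1/-2 deletion in capillary wells, 1 filled point per plate for capillary wells and 1 open point for the other wells of that plate; T1 is the Tie1 strain, T1T2 the Tie1 Tie2 strain, fl Cre-negative and iΔ Cre-positive. Angpt2 lies at 3181 and 2637 CPM in the capillary wells of Tie1 Tie2 iΔLEC against 237 and 331 in Tie1 Tie2 fl/fl, the open points follow the filled ones for most genes, and Adm differs between filled and open points in the Cre-negative plates.

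Fibroblast transcripts moved with these groups in part. The summed CPM of Col1a1, Col1a2, Dcn, Lum and Pdgfra in capillary wells was 516 on plate 1 of Tie1 Tie2 fl/fl and 19.3 to 87.1 on the other 7 plates, led by Col1a1, and none of the 5 was at 0 over all plates. With Tie1/-2 deletion the median log2 fold change of the 5 genes was -3.25, with 0 called, and their part in the calls was not tested. Leaving out wells in which the summed CPM of fibroblast and keratinocyte markers exceeded that of Prox1, Flt4, Pdpn, Mmrn1 and Ccl21a left 25 called genes, all of them among the 26. The keratinocyte genes summed to 308 CPM on plate 2 of Tie1 fl/fl and to 7.85 to 61.5 on the others. Mural genes reached at most 34.9 and leukocyte genes at most 8.93 CPM.

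The count of calls changed when single plates were left out, which leaves an arm of 1 plate that is assumed to vary like the other groups. Without plate 2 of Tie1 Tie2 iΔLEC 4 genes were called, without its plate 1 12, and without either plate of Tie1 Tie2 fl/fl 7. Over the 22 alternatives the log2 fold change of Fn1 lay between 2.05 and 2.41 and that of Tppp3 between -3.37 and -2.91. With equally numbered plates as a replicate block 12 of the 26 were called, and Esm1, Slc38a1, Tspan6, Adm, Scn3a, Slc10a4, Prkar1b, Duoxa2, Clca3a1, Serping1, Aldh2, Ucp2, Pcp4l1 and Col23a1 were not, with edgeR adjusted p of 0.0813 to 0.154. Angpt2, Lrg1 and Eln were called under each of the 22 alternatives, with adjusted p up to 0.0329. The others were called under 4 (Adm) to 21 (Fndc1, Ptn) of them.

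With Tie1 deletion, the 5 genes with the lowest p in each direction are given as values that did not pass. Besides Slc38a1 and Angpt2, the higher ones were Clca2, a chloride channel regulator gene (0.51 and 0.152 CPM in Tie1 fl/fl, 14 and 11.5 in Tie1 iΔLEC), the cytochrome P450 gene Cyp4b1 (17.7 and 26.6, then 206 and 133 CPM) and Itprid2 (1.15 and 1.37, then 33.8 and 26.7 CPM). The control genotypes differed in all 3. In Tie1 Tie2 fl/fl Clca2 was at 27.1 and 24 CPM, Cyp4b1 at 111 and 93.4 and Itprid2 at 46.8 and 26.2 CPM, each above both Tie1 fl/fl plates. The lower ones besides Tie1 were Casp9, a caspase gene (116 and 90.1, then 17.8 and 21.9 CPM), 5031434O11Rik, Commd9 and Nqo1. Their edgeR adjusted p-values were 0.169 to 0.842.

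With Tie1/-2 deletion 4 list genes were called in capillary wells, where 0.16% of all genes tested were called. Angpt2 and Fn1 were the only list genes called upward and Tie1 and Tppp3 the only ones called downward. The VEGF receptor list had 0 called of 9 tested, with a median log2 fold change of -1.0 where the median of all genes was 0.08. In it, Flt4 was at 1726 and 2552 CPM in Tie1 Tie2 fl/fl and 1963 and 1442 in Tie1 Tie2 iΔLEC, so the plates overlapped (log2 fold change -0.33, SE 0.28). The VEGF-C co-receptor gene Nrp2 was at 406 and 716 against 171 and 160 CPM (-1.76, SE 0.31, edgeR adjusted p = 0.117) and Kdr, the VEGFR2 gene, at 758 and 772 against 400 and 367 CPM (-1.0, SE 0.22, edgeR adjusted p = 0.239).

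Of 16 genes of the PI3K, Akt and FoxO pathway, which acts downstream of Tie receptors, 0 were called, with a median of 0.45. Of 16 FoxO target genes 1 was called, Angpt2, and the list's median was -0.20. Of 12 junction genes 0 were called, with a median of 0.19. Cldn5, the main endothelial claudin, was at 2669 and 2566 CPM in Tie1 Tie2 fl/fl and 2679 and 2295 in Tie1 Tie2 iΔLEC. Among 13 lymphatic identity genes 0 were called, with a median of -0.15, and Prox1 was at 871 and 669 against 910 and 812 CPM. Among 12 genes of mechanical and flow response 0 were called, with a median of 0.11. Hey1, a Notch target, was at 124 and 99.7 against 13.0 and 15.7 CPM (-2.96, SE 0.58, edgeR adjusted p = 0.159) and Ccn2 at 122 and 65.5 against 539 and 462 CPM (2.41, SE 0.53, edgeR adjusted p = 0.239).

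The other lists of LEC genes had 0 called, with medians of 0.30 for the 4 terminal capillary genes, 0.39 for 8 collecting-vessel genes outside the score, -0.13 for 10 valve genes, 0.22 for 6 proliferation genes, -0.81 for 6 interferon genes, -0.30 for 16 genes of leukocyte trafficking, 0.19 for 14 axon guidance genes, 0.35 for 10 genes of hyaluronan and lipid uptake and 0.39 for 8 genes of dissociation stress. In the terminal capillary list Mest was at 236 and 219 against 641 and 577 CPM (1.42, SE 0.25, edgeR adjusted p = 0.111). With Tie1 deletion no list gene was called by edgeR, and list medians lay between -0.17 and 0.86 outside the lists of other cell types. The matrix list, with Fn1, had a median of -0.37 over 13 genes with Tie1/-2 deletion, the Tie receptor and angiopoietin list -2.26 over 5 and the 8 capillary genes outside the score 1.14. Among lists of other cells, the medians were -0.42 for 6 blood endothelial genes, -1.56 for 3 keratinocyte genes and -1.93 for 3 mural genes, with 0 called in each, and 1 leukocyte gene was tested.

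Whether the effect of deletion differed between capillary wells and the other wells of the same plates was tested with an interaction term and the plate as a block. By edgeR 0 of 19373 genes (0%) passed for Tie1 deletion and 0 (0%) for Tie1/-2 deletion, with 992 and 1068 genes at an unadjusted p under 0.05. DESeq2 called 187 (0.963%) and 178 (0.917%). The median interaction of all genes for Tie1/-2 deletion was 0.23, and 0.11 with RLE factors. It was -0.04 when wells were ranked by capillary genes alone and -0.03 with the top 20% of each plate, a choice made after seeing the data, so this shift depended on how members were chosen.

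The valve gene Slc41a1, a magnesium transporter, had the lowest p of the Tie1/-2 interaction. In capillary wells it was at 71.1 and 187 CPM in Tie1 Tie2 fl/fl and 292 and 215 in Tie1 Tie2 iΔLEC, and in other wells at 452 and 1085 and at 503 and 348 CPM. The interaction was 1.86 (SE 0.16, edgeR adjusted p = 0.0890). For Adm it was 2.73 (SE 0.35, edgeR adjusted p = 0.419). The part of the higher share of members in Tie1 Tie2 iΔLEC in this value was not tested. Fhdc1, a formin-family gene, was low in the capillary wells of all 4 Cre-negative plates, at 1.76 to 3.30 CPM, and at 21.6 to 66.2 CPM on the 4 Cre-positive plates, while the other wells held 51.3 to 102 and 39.0 to 74.0 CPM. Its interactions of 3.84 (SE 0.65) and 4.26 (SE 0.66) did not pass the threshold (edgeR adjusted p = 0.973 and 0.779). For Tie1 deletion the other lowest p were those of Fam107b, Itprid2, Clca2 and Mcmbp upward and Plxna3, Phc1, Ip6k3, Adar and Pgf downward, with an edgeR adjusted p of 0.973. For Tie1/-2 deletion they were those of Pcdhb10 and Fam219b upward and Col1a1, Ackr2, Ptn, Mars and Igfbp5 downward.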

How the data were processed

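Per the labels, reads of the Smart-seq plates were aligned to GRCm38 (TopHat2 2.1.1, SAMtools 0.1.18) and assigned to genes with featureCounts of the Subread package. The authors deposited whole-number read counts per gene and well, with duplicate reads removed before counting and no molecular identifiers. Strand setting and annotation release are not given in the sources used here. Antibody-treated samples of the series were not used here. Tables with symbols and with Ensembl identifiers were joined over 42520 genes (GENCODE names, GRCm38), which held 95.6% to 96.7% of the counts. No 2 wells held identical counts. The 8 plates gave 71249844 to 110741537 counts each.

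The score of each well, the summed counts of capillary and other wells per plate (16 sums) and their CPM on the TMM scale were computed with Python 3.11.15 (numpy 2.4.6, pandas 2.3.3, scipy 1.17.1) and R 4.3.3. The 8 sums of capillary wells were fitted in edgeR 4.0.16 (filterByExpr, TMM, robust quasi-likelihood) with the 4 genotypes as groups, since no test for these data is given in the sources used here, and the 16 sums with plate as a block and an interaction term. Log2 ratios of capillary over other wells used CPM + 1. DESeq2 1.42.0, limma 3.58.1 on mean CPM per well, other filters, thresholds and plates left out were alternatives. Of the called genes that averaged 10 CPM or more and did not overlap between genotypes, the 10 largest rises and falls were named. With fewer than 3 calls, the 5 lowest p in each direction were named. Genes of the lists and those past 2-fold on all plates were named as well. The 7 called genes beyond that rule are named for completeness. The members and gene lists were chosen with earlier results of these data known. The fit was tested on simulated data. A gene of the lists is not reported here.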

Additional observations from a re-analysis of the deposited data

Results flagged for a closer look

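The 4 tables with Ensembl identifiers list an eGFP sequence, and 3 of them hold counts for it, although the labels name no reporter. At least 1 such count was found in 60% of capillary wells on plate 1 of Tie1 Tie2 fl/fl and in 58.3% on plate 2 of Tie1 iΔLEC, against 2.33% on plate 2 of Tie1 fl/fl and 0 of 216 wells on plate 1 of Tie1 Tie2 iΔLEC. The other wells of these plates gave 63.1%, 59.1%, 3.15% and 0%. The capillary wells held 212, 463, 3 and 0 eGFP counts in all. The source of these counts was not tested.

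Of the genes called or given for their lowest p within capillary wells, 2 moved one way on all plates with Tie1 deletion and the other way with Tie1/-2 deletion. Col1a1, given for its interaction, did so too. It was at 7.40 and 6.19 CPM in Tie1 fl/fl, 7.74 and 24.6 in Tie1 iΔLEC, 155 and 66.2 in Tie1 Tie2 fl/fl and 0.380 and 12.5 in Tie1 Tie2 iΔLEC. Its effects differed by -5.35 (SE 1.79, edgeR adjusted p = 0.722). Other genes were not searched for this, and in either contrast 13.5% to 21.2% of all genes moved in one direction without overlap. For 5031434O11Rik the effects differed by 14.74 on the log2 scale (SE 2.41, edgeR adjusted p = 0.397). It was at 17.9 and 5.58 CPM in Tie1 fl/fl and at 0.0819 and 0.0301 in Tie1 iΔLEC, at 0 and 0.0493 in Tie1 Tie2 fl/fl and at 4.26 and 3.99 in Tie1 Tie2 iΔLEC. The size of this difference is uncertain, since Tie1 Tie2 fl/fl held 0 and 1 counts and Tie1 iΔLEC 2 and 1. The higher groups rest on few wells. The gene was found in 16.2% and 5.81% of capillary wells in Tie1 fl/fl and in 0.926% and 7.41% in Tie1 Tie2 iΔLEC. The ratio of Tie1 fl/fl over Tie1 iΔLEC was 216 with a 95% counting interval of 73.2 to 1050, which leaves out the spread between wells. For Commd9 the effects differed by 2.62 (SE 0.68, edgeR adjusted p = 0.722), with 111 and 65.7 CPM in Tie1 fl/fl, 17.3 and 30.5 in Tie1 iΔLEC, 34.1 and 30.6 in Tie1 Tie2 fl/fl and 52.7 and 55.1 in Tie1 Tie2 iΔLEC. None of these differences passed the threshold.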

How the results depend on the processing

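With Tie1/-2 deletion, lower calls outnumbered higher ones under every alternative run. With Tie1 deletion the main fit called 0 genes, and the calls of the alternatives did not share a direction. No difference in share reversed its direction. Nor did the effect of any gene called with Tie1/-2 deletion or given for its lowest p, the genes for which alternatives were run. Medians over all genes did change sign, that of the Tie1/-2 interaction from 0.23 to -0.04 by capillary genes alone and to -0.03 with the top 20% of each plate, that of Tie1/-2 deletion from 0.08 to -0.04 with the top 20% of each plate and to -0.01 without plate 2 of Tie1 Tie2 iΔLEC and just under 0 with DESeq2, and that of Tie1 deletion from 0.03 to between -0.03 and -0.01 with the top 20% of each plate, the 70th percentile, DESeq2, RLE factors, capillary genes alone or without plate 2 of Tie1 iΔLEC. For Tie1 deletion in capillary wells (0 calls), DESeq2 called 225 genes (162 higher, 63 lower) and the fit without a filter on low counts 125 (86 and 39). A term for table format and limma called 1 each, in the lower direction. For Tie1/-2 deletion (26 calls), DESeq2 called 522 (210 higher, 312 lower), no filter 391 (119 and 272), limma 84 (25 and 59), the 70th percentile 44, the 90th percentile 17 and ranking by capillary genes alone 43 (7 and 36), 21 of them shared. Taking the top 20% of each plate, a choice made after seeing the data, called 38 genes, 22 of them shared. Leaving out single plates gave 4 to 30 calls. The interactions (0 calls) had 187 and 178 calls with DESeq2, and that of Tie1/-2 deletion had 1 without a filter. The cause was not tested. Of values for single genes named, 420 with Tie1/-2 deletion stayed on their side of the threshold and 152 lost their call. With Tie1 deletion 20 of 220 came to pass.

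Plates were numbered in the order of the series. In both contrasts equally numbered plates have the same table format and consecutive plate identifiers, and in the Tie1 strain the same sex, but no source says what a pair shared. Deviations of equally numbered plates correlated at 0.0918 (Tie1) and 0.188 (Tie1/-2) over 10094 genes. With a replicate block 12 genes were called for Tie1/-2 deletion, all of them among the 26, and 0 for Tie1 deletion. With table format as a term 27 genes were called, 20 of them among the 26.

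The difference in share with Tie1/-2 deletion (45.6 points) was 39.4 at the 90th percentile, 39.7 with wells thinned to 50000 counts and 1.60 by capillary genes alone, and 42.2 to 49.0 with single plates left out. With Tie1 deletion it was 3.44 to 24.4 with single plates left out. The 13 genes past 2-fold on all plates became 7 from means of log2 values per well, and 14 to 23 with 1 plate left out, 22 and 23 without plate 1 or 2 of Tie1 Tie2 iΔLEC.

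The sums of 5 plates rest on fewer than 100 capillary wells.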
